A study of Mus musculus with 6 samples.

Results

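The 4 genes described here encode nuclear receptors known as repressors of Oct4, the pluripotency factor encoded by Pou5f1. They are Nr2f1 (COUP-TFI), Nr2f2 (COUP-TFII) and Nr2f6 (EAR2) of the COUP-TF family, and Nr6a1, the germ cell nuclear factor GCNF. They are 4 of the 18194 genes read on the array. Their probe sets, short groups of probes against 1 transcript, were those that the platform annotation gives to exactly 1 of these symbols, 14 of 45101 in all. Nr2f1 had 1 probe set, Nr2f2 had 6, Nr2f6 had 2 and Nr6a1 had 5, and no probe set listed a member together with a second gene. The genes were chosen for their known function, with earlier results of these arrays in view.

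RNA came from OLV2-1, a mouse embryonic stem cell line that carries the fluorescent protein Venus knocked into Oct4, so cells of all 3 groups carry that reporter allele. Undifferentiated cells (ESC) were sorted on Venus, with CD31 (Pecam1) as a further positive gate in the protocol. EpiSC-like cells, meaning cells that resemble epiblast stem cells, were Venus-positive, Pecam1-negative cells from aggregates at day 3 of SFEBq, a serum-free suspension culture that induces neural fate. The Day7_Oct4-Venus+ group held Venus-positive cells of such aggregates at day 7, with no Pecam1 gate named. Each group had 2 arrays, all from 1 cell line, and nothing says that they came from separate cultures, so the p-values measure the spread between these samples, which may be technical. Day 7 aggregates were dissociated with EDTA alone, the other cells with trypsin followed by a recovery period, so stage and handling cannot be told apart in any day 7 comparison.

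As background, COUP-TF receptors and GCNF are orphan nuclear receptors that bind direct repeats of the core motif AGGTCA. In embryonal carcinoma and stem cells treated with retinoic acid, COUP-TFs displace activating receptors from the Pou5f1 promoter, and GCNF recruits corepressors and DNA methyltransferases to it while the gene is silenced. Nr2f1 and Nr2f2 are otherwise known as regulators of neural patterning, with Nr2f2 also acting in veins and mesenchyme, and Nr6a1 is needed in the embryo after gastrulation. The sorted cells still carried Oct4 reporter signal at each stage, so the comparison asks how transcripts of its repressors stood in cells that kept that signal.

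The promoter of Pou5f1 is shown because it is where these receptors are reported to bind, that of Nr2f1 because it was the called gene, and that of Nr6a1 because it was the receptor window with matches. Each is the 250 bases before an annotated start site, taken from RefSeq on build GRCm38.p6 and written 5′ to 3′ on the gene's strand, with AGGTCA, or its reverse complement TGACCT, in capitals.
Pou5f1, chr17:35505782-35506031, plus strand: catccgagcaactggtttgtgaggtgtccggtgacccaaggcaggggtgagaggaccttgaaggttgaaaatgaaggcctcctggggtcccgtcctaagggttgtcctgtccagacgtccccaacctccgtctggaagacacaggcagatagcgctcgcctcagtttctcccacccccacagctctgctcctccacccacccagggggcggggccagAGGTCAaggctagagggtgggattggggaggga
Nr2f1, chr13:78198874-78199123, minus strand: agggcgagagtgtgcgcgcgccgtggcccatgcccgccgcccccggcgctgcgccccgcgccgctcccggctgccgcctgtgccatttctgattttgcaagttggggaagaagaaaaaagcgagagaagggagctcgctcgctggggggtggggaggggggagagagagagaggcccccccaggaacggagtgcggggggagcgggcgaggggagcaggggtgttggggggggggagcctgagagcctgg
Nr6a1, inner start site, chr2:38784516-38784765, minus strand: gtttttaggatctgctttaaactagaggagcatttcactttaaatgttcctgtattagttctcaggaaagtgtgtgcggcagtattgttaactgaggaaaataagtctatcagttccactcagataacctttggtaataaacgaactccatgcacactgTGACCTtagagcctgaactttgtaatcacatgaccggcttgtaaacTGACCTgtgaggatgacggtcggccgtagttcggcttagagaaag
The Pou5f1 window held 1 core motif, which begins 33 bases before the start site on the gene's strand. The inner Nr6a1 window held 2, both on the opposite strand. The windows of Nr2f1, Nr2f2, Nr2f6 and the outer start site of Nr6a1 held 0, as did a second window inside Pou5f1 and another inside Nr2f1. Searched on both strands, the core motif occurred in 14% of 32851 windows of the same length. No window of these 5 genes held a perfect direct repeat of it, whether with no gap, found in 0.00609% of windows, as AGGTCANAGGTCA, found in 0.0335%, or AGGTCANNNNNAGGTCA, found in 0.00913%. Each repeat also contains the core motif. A match of letters is a description and does not show binding.

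The arrays were scaled alike by the depositors, with median signals of 64 to 76.3 intensity units. The 3 replicate 1 arrays had highest signals of 30793 to 36841 and the 3 replicate 2 arrays of 63296 to 66643, with hybridization controls of 3172 to 4159 and 6668 to 8064. Poly-A controls read 36.6 and 37.5 on ESC and EpiSC-like replicate 2 and 206 to 323 on the other 4 arrays. Differences are also given within each replicate number, and the 3 comparisons share arrays with each other. The labels were checked with markers. Transcripts of Pecam1, whose protein was the sort gate, read 728 and 343 in ESC and 401 and 177 in EpiSC-like cells. These groups overlapped, at a log2 difference of -0.87 ± 0.51 (SE, limma adjusted p = 0.482), so Pecam1 RNA did not separate them. Fgf5, a growth factor of the postimplantation epiblast, read 26.2 and 25.9 in ESC, 1009 and 1243 in EpiSC-like cells and 409 and 215 at day 7. Of 14 naive pluripotency genes 4 fell in EpiSC-like cells (Klf4, Tfcp2l1, Klf5 and Esrrb) and 1 at day 7 (Klf5), against ESC, with summed signals of 73314 and 99127 in ESC, 32101 and 24361 in EpiSC-like cells and 46760 and 51433 at day 7.

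Pou5f1 itself, on its 1 probe set (1417945_at), read 7927 and 14055 in ESC, 6244 and 9923 in EpiSC-like cells and 6533 and 9062 at day 7. Each value lay between percentiles 97.4 and 98.8 of its array, and the 3 groups overlapped. Log2 differences of (signal + 16), a scale used throughout that understates changes of dim genes, were -0.42 ± 0.39 (SE) for EpiSC-like cells against ESC and -0.46 ± 0.39 for day 7 against ESC, with limma adjusted p of 0.680 and 0.587. Their 95% intervals, -1.35 to 0.51 and -1.38 to 0.47, include 0 and differences beyond -1. Within replicates 1 and 2 the first difference was -0.34 and -0.50, and the second was -0.28 and -0.63. With the replicate number as a block the SE was 0.21 and the limma adjusted p 0.356 and 0.285. Replicate 2 read higher than replicate 1 in each group, so leaving out 1 array also unbalances the replicates. Both values were close to 0 without ESC replicate 2 (-0.01 and -0.04) and larger without ESC replicate 1 (-0.84 and -0.87). Without EpiSC-like replicate 1 the first was -0.09 and without replicate 2 it was -0.76, and without day 7 replicate 1 the second was -0.22 and without replicate 2 it was -0.69. Day 7 stood at -0.03 ± 0.39 against EpiSC-like cells (adjusted p = 0.985).

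**Figure D1:**
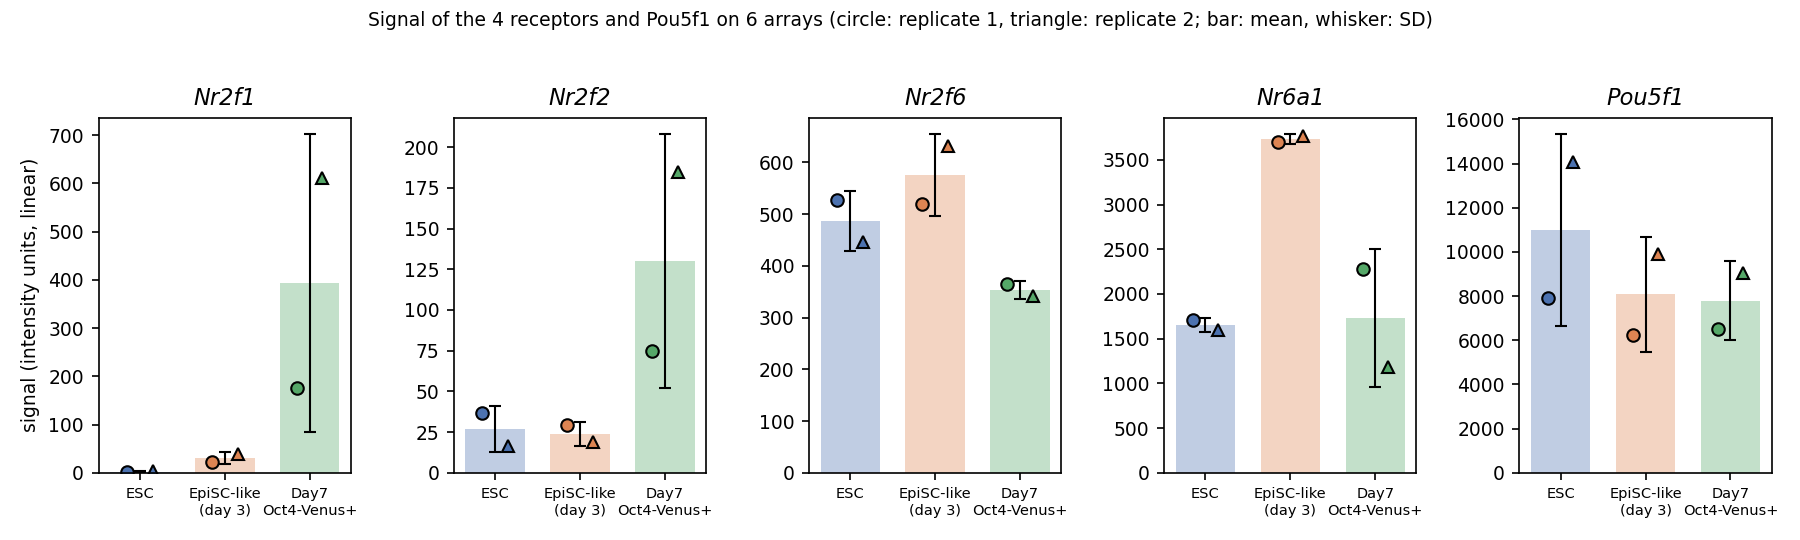
Signal in linear intensity units of Nr2f1, Nr2f2, Nr2f6, Nr6a1 and Pou5f1 on the 6 arrays, each gene by its brightest probe set, with bars for the mean and whiskers for the SD of 2 arrays (circle, replicate 1; triangle, replicate 2). Nr2f1 is highest at day 7 (175 and 611, against 1.69 and 2.92 in ESC), and Nr6a1 is highest in EpiSC-like cells (3698 and 3770).

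Nr2f1 was the 1 receptor of the 4 called in any comparison. Its probe set (1418157_at, NCBI gene 13865, chr13:78188971-78198873) read 1.69 and 2.92 in ESC, 22 and 39.8 in EpiSC-like cells and 175 and 611 at day 7. The 3 groups did not overlap, and the day 7 arrays differed from each other more than those of any other group. In rank terms the probe set stood at percentiles 3.1 and 5.04 of all probe sets in ESC, 28.3 and 38.5 in EpiSC-like cells and 63.1 and 79.4 at day 7. The ESC values lie near the lowest signals of the array and far below the pseudocount of 16, so no fold change is given.

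At day 7 Nr2f1 was higher than in ESC by 4.24 ± 0.55 on the log2 scale (limma adjusted p = 0.0364), the 4th largest difference of 18194 genes by size. In this comparison 1.05% of all genes were called, 0.764% higher and 0.286% lower. Within replicate 1 the difference was 3.43 and within replicate 2 it was 5.05. The call did not hold when any single array was left out, where few or no genes at all were called. The limma adjusted p was 0.0953 without ESC replicate 1, 0.204 without ESC replicate 2, 0.0770 without either EpiSC-like array, 0.0511 without day 7 replicate 1 and 0.167 without day 7 replicate 2, at differences of 3.38 to 5.10. The difference was 2.60 with a pseudocount of 64 (adjusted p = 0.0321). The call was also lost with a pseudocount of 1 (6.66, adjusted p = 0.0957), with the replicate number as a block (adjusted p = 0.0668) and when all probe sets were adjusted together (adjusted p = 0.0668). Each of these fits called 0 genes or probe sets in this comparison, so the loss is not particular to Nr2f1. With a pseudocount of 1 and with the block, the limma adjusted p of Nr2f1 equalled the smallest of all genes.

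EpiSC-like cells had more Nr2f1 signal than ESC by 1.33 ± 0.55 (adjusted p = 0.304), a value that moved to 3.24 with a pseudocount of 1 and 0.51 with a pseudocount of 64. Day 7 stood 2.91 ± 0.55 above EpiSC-like cells (adjusted p = 0.101), with 2.33 and 3.49 within the replicates. Neither passed. In the comparison of EpiSC-like cells with ESC 1.9% of genes were called, 1.33% higher and 0.572% lower. In that of day 7 with EpiSC-like cells limma called 0 of 18194, or 0%, with 2573 at an unadjusted p under 0.05.

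Nr2f2 (NCBI gene 11819, chr7:70351946-70366746), the closest relative of Nr2f1, was highest at day 7. Its brightest probe set (1416159_at) read 36.9 and 16.7 in ESC, 29.2 and 18.6 in EpiSC-like cells and 74.9 and 185 at day 7. Both day 7 arrays lay above the other 4, which overlapped each other. The differences were 1.70 ± 0.44 for day 7 against ESC (adjusted p = 0.124) and 1.77 ± 0.44 for day 7 against EpiSC-like cells (adjusted p = 0.168), and -0.07 ± 0.44 for EpiSC-like cells against ESC (adjusted p = 0.969). They were uneven between replicates, at 0.78 and 2.62 for day 7 against ESC.

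Of the other Nr2f2 probe sets, 1416160_at read 0.827 and 3.56 in ESC, 1.57 and 8.92 in EpiSC-like cells and 25 and 42 at day 7, again with both day 7 arrays on top. The remaining 4 read at most 49.6 on any array, and their day 7 differences against ESC ran from -0.15 to 0.50. Averaged over its 6 probe sets Nr2f2 differed by 0.67 between day 7 and ESC (adjusted p = 0.286), and by 0.80 between day 7 and EpiSC-like cells (adjusted p = 0.288). With a pseudocount of 64 the differences on the brightest probe set were 1.04 and 1.08, and without day 7 replicate 2 they were 1.13 and 1.20.

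Nr6a1 (NCBI gene 14536, chr2:38723369-38926461) was highest in EpiSC-like cells on its brighter probe sets. Its main probe set (1428826_at) read 1709 and 1594 in ESC, 3698 and 3770 in EpiSC-like cells and 2280 and 1184 at day 7. Both EpiSC-like arrays lay above the other 4, and day 7 and ESC overlapped. The second bright probe set (1428825_at) had the same order, with 1403 and 1202 in ESC, 2582 and 3033 in EpiSC-like cells and 1463 and 1000 at day 7.

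EpiSC-like cells exceeded ESC in mean Nr6a1 signal 2.26-fold on the first of these probe sets and 2.16-fold on the second. On the log2 scale the first gave 1.17 ± 0.34 (limma adjusted p = 0.159, 95% interval 0.36 to 1.98), with 1.11 and 1.23 within the replicates. Day 7 against EpiSC-like cells stood at -1.18 ± 0.34 (adjusted p = 0.207), with -0.69 and -1.66 within the replicates. Neither passed the threshold. Day 7 against ESC stood at -0.01 ± 0.34 (adjusted p = 0.995, 95% interval -0.82 to 0.80), and its sign differed between replicate 1 (0.41) and replicate 2 (-0.42). The other 3 Nr6a1 probe sets read 2.01 to 55.1 on all arrays and were not highest in EpiSC-like cells. Their means in ESC, EpiSC-like cells and day 7 were 43.4, 43.7 and 54.6 (1421516_at), 28.7, 42.4 and 42.5 (1421515_at), and 6.78, 4.68 and 8.82 (1445872_at). Averaging all 5 gave a difference of 0.50 between EpiSC-like cells and ESC. The same averaging put day 7 at -0.38 relative to EpiSC-like cells, a difference that without day 7 replicate 2 was -0.71 on the main probe set.

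Nr2f6 (NCBI gene 13864, chr8:71374118-71381967), a more distant relative of the COUP-TFs, was lowest at day 7 on its brighter probe set. Its brighter probe set (1460648_at) read 528 and 446 in ESC, 520 and 631 in EpiSC-like cells and 365 and 341 at day 7, so both day 7 arrays were lowest while ESC and EpiSC-like cells overlapped. The second (1460647_a_at) read 295 and 332 in ESC, 379 and 502 in EpiSC-like cells and 244 and 344 at day 7. Day 7 differed from EpiSC-like cells by -0.67 ± 0.24 (adjusted p = 0.288) and from ESC by -0.44 ± 0.24 (adjusted p = 0.380), and EpiSC-like cells from ESC by 0.23 ± 0.24 (adjusted p = 0.719). None passed.

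**Figure D2:**
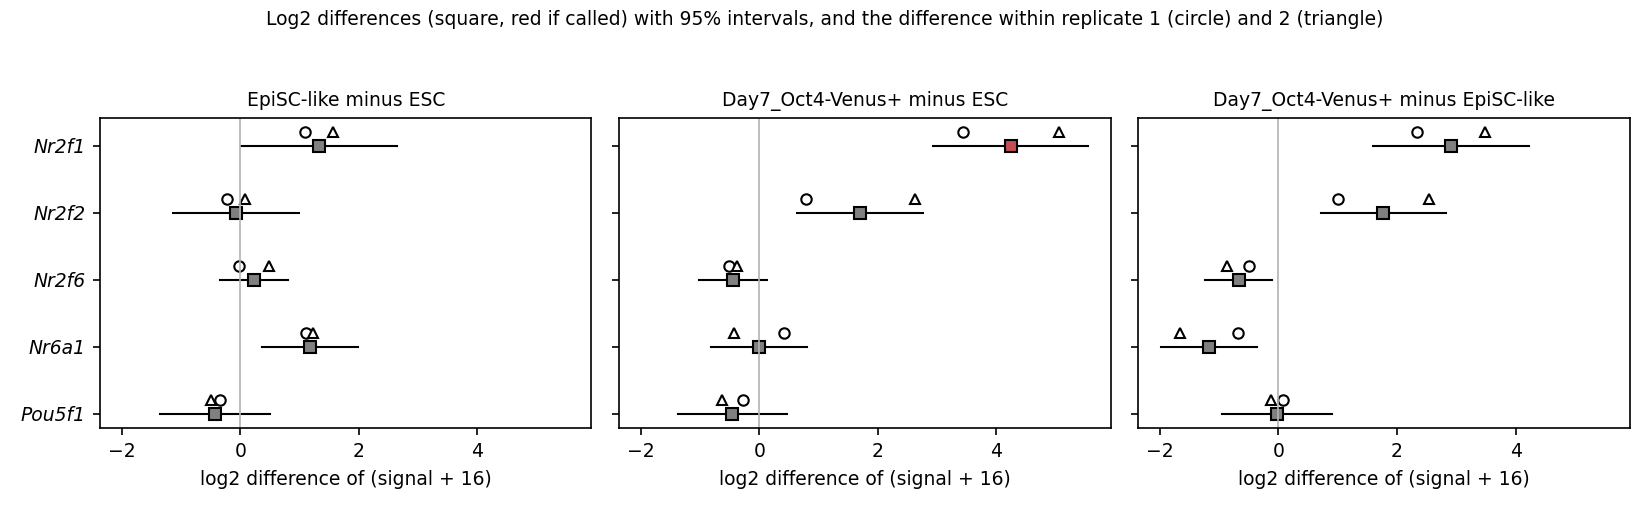
Log2 differences of (signal + 16) for the 4 receptors and Pou5f1 in each comparison, with 95% intervals from limma, and the differences within replicate 1 (circle) and replicate 2 (triangle). The 1 red square is the called difference of Nr2f1 at day 7 against ESC (4.24), while Nr6a1 stands at 1.17 in EpiSC-like cells against ESC and at -1.18 at day 7 against EpiSC-like cells.

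Counted by gene, 2 of the 4 (Nr2f1 and Nr6a1) were higher in EpiSC-like cells than in ESC with no overlap of arrays, where 25% of all genes were, and 0 were lower, against 19.8% of all. At day 7 against ESC 2 were higher (Nr2f1 and Nr2f2; 26.7% of all genes) and 1 lower (Nr2f6; 23.5% of all). At day 7 against EpiSC-like cells 2 were higher (Nr2f1 and Nr2f2; 21.4% of all) and 2 lower (Nr2f6 and Nr6a1; 24.5% of all). Counted by probe set, 5 of the 14 were higher in EpiSC-like cells than in ESC with no overlap of arrays, where 22.3% of all probe sets were, and 2 were lower, against 18.2% of all. For day 7 against ESC the counts were again 5 higher (26.6% of all) and 2 lower (19.9% of all). For day 7 against EpiSC-like cells 6 were higher (22.6% of all) and 4 lower (20.1% of all). In the fit over all 45037 probe sets 0 of the 14 were called in any comparison, with smallest adjusted p of 0.209, 0.0668 and 0.173 in the same order. That fit called 0.286% of probe sets in the first comparison and 0% in the other 2.

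**Figure D3:**
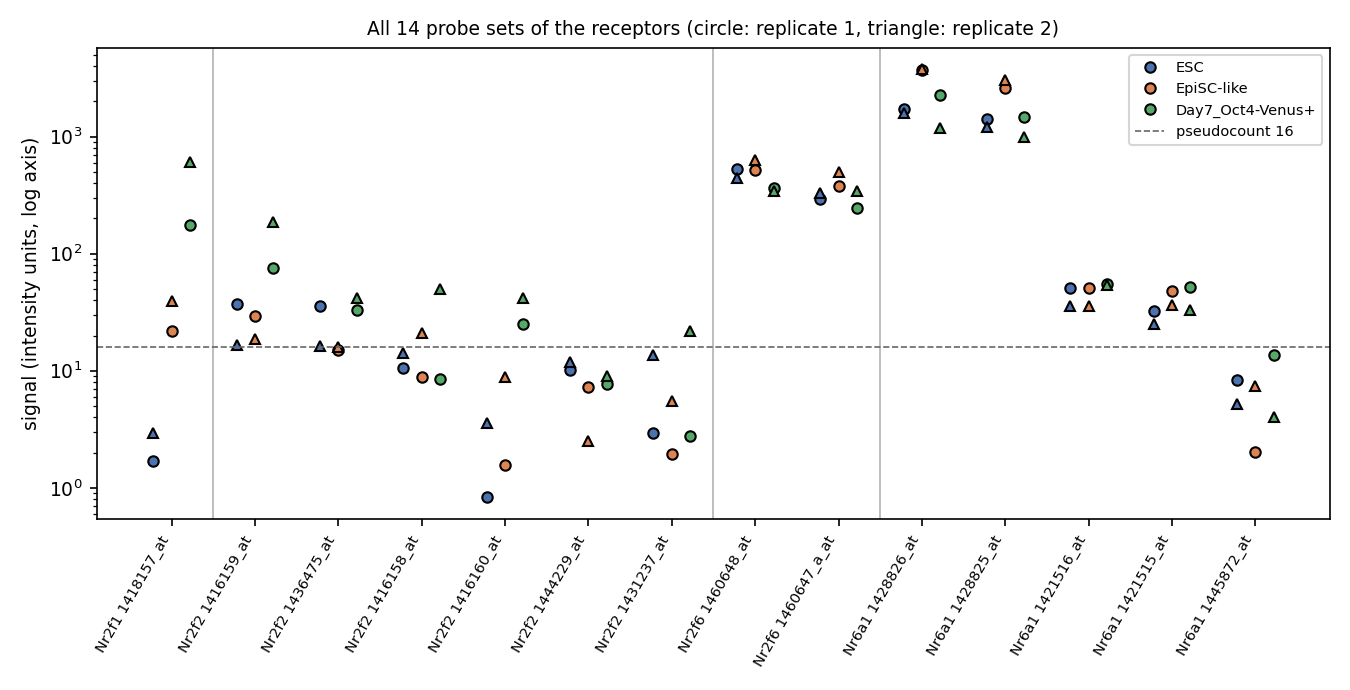
Signal on a log axis of all 14 probe sets of the receptors, grouped by gene, for the 6 arrays (circle, replicate 1; triangle, replicate 2), with the pseudocount of 16 as a dashed line. The 2 bright Nr6a1 probe sets share their highest values in EpiSC-like cells, the Nr2f6 probe sets lie between 244 and 631, and most Nr2f2 probe sets lie near or below the dashed line.

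For comparison, 40 other nuclear receptors were analysed. In EpiSC-like cells against ESC 1 of the 40 rose and 1 fell, where 1.33% of all genes were called higher and 0.572% lower. Rarb, a retinoic acid receptor and a target of retinoic acid, rose by 2.00 ± 0.24 (adjusted p = 0.0234), and Esrrb, an orphan receptor of the naive network, fell by 2.08 ± 0.33 (adjusted p = 0.0395). Rarb read 17.1 and 20.1 in ESC and 109 and 136 in EpiSC-like cells, so the groups did not overlap, nor did they for Esrrb. Calls in this comparison and at day 7 against ESC were few or absent over all genes when any 1 array was left out. Such a fit can leave 1 array in a compared group, so a call lost there does not show that 1 array carried it. None of the 40 passed at day 7 against ESC, where the highest log2 difference among them was 1.26 (Rora). The median log2 difference of the 40 was -0.11, -0.03 and -0.04 in EpiSC-like cells against ESC, day 7 against ESC and day 7 against EpiSC-like cells. That of the 4 receptors was 0.70, 0.85 and 0.55, and that of all genes 0.03, 0.02 and -0.02. The 4 did not move together. Day 7 against EpiSC-like cells stood at 2.91 for Nr2f1, 1.77 for Nr2f2, -0.67 for Nr2f6 and -1.18 for Nr6a1.

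Of 5 receptors known to activate Pou5f1, 1 fell in EpiSC-like cells against ESC, Esrrb, where 0.572% of all genes were called lower. At day 7 against ESC 0 of the 5 passed (1.05% of all genes). Against EpiSC-like cells 0 of all 18194 genes were called, so the lack of calls there says nothing about the 5. All 5 had negative log2 differences in EpiSC-like cells and at day 7 against ESC, with medians of -0.49 and -0.59. Esrrb read 4071 and 5447 in ESC, 1360 and 887 in EpiSC-like cells and 2387 and 1676 at day 7. Nr5a2 (LRH-1), which binds Pou5f1 control regions, read 2244 and 1822 in ESC, 1137 and 755 in EpiSC-like cells and 1714 and 1922 at day 7 (-1.11 ± 0.28, adjusted p = 0.121, and -0.15 ± 0.28, adjusted p = 0.818, against ESC). Its EpiSC-like arrays were thus lowest, in the same direction as the naive pluripotency list that holds it. Of that list 14 of 14 genes were lower in EpiSC-like cells than in ESC, and 13 were higher at day 7 than in EpiSC-like cells. Against ESC, EpiSC-like cells and day 7 stood at -0.19 and -0.59 for Rara, at -0.32 and -0.26 for Rxra, and at -0.49 and -0.61 for Nr5a1, which read 6.85 to 30.7 over the arrays.

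**Figure D4:**
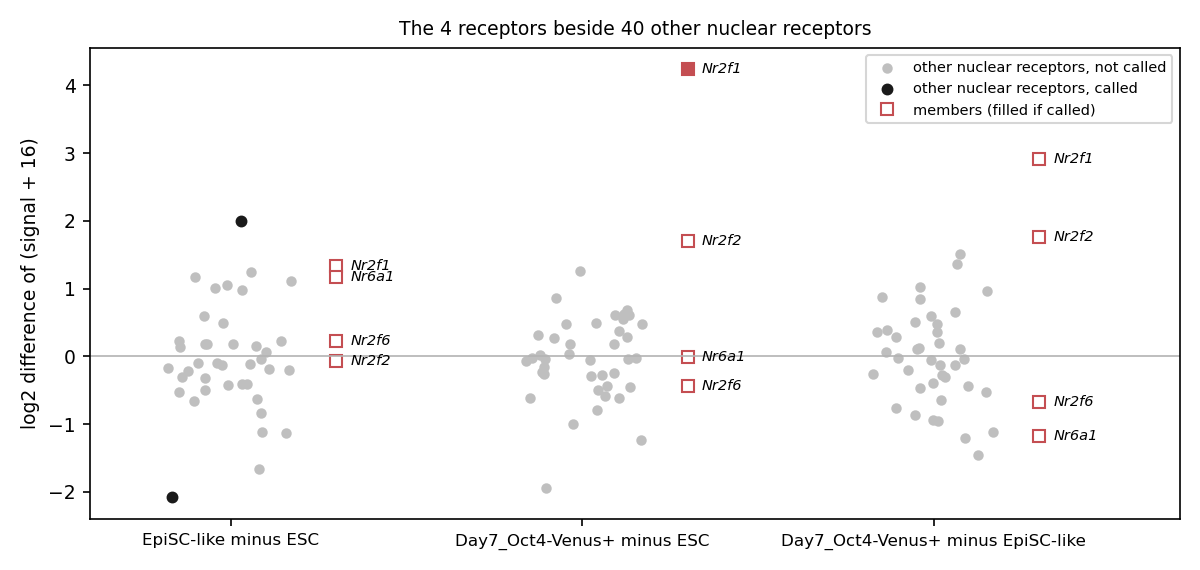
Log2 differences of (signal + 16) of the 4 receptors (squares, filled where called) beside 40 other nuclear receptors (dots, black where called) in each comparison. Nr2f1 at 4.24 lies above every other receptor plotted for day 7 against ESC, and in EpiSC-like cells against ESC the called receptors are Rarb (2.00) and Esrrb (-2.08).

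Among 14 measured corepressors and partners of COUP-TFs and GCNF, 1 rose in EpiSC-like cells against ESC (1.33% of all genes) and 0 fell (0.572% of all). At day 7 against ESC 0 of the 14 were called (1.05% of all genes). Against EpiSC-like cells 0 of all 18194 genes were called, so the lack of calls there says nothing about the 14. The gene that rose was Bcl11a (CTIP1), a zinc finger protein that binds COUP-TFs. It read 71.1 and 35.3 in ESC, 403 and 404 in EpiSC-like cells and 141 and 130 at day 7 (2.65 ± 0.30 in EpiSC-like cells against ESC, adjusted p = 0.0218). The 3 Dnmt3 genes of the list, of the de novo DNA methylation machinery, did not pass and differed in sign in EpiSC-like cells against ESC, at 2.40 ± 0.59 for Dnmt3a (adjusted p = 0.112), 1.22 ± 0.32 for Dnmt3b (adjusted p = 0.128) and -1.35 ± 0.26 for Dnmt3l (adjusted p = 0.0640). Dnmt3b read 10402 and 7148 in ESC, 17818 and 22681 in EpiSC-like cells and 10850 and 7356 at day 7, with both EpiSC-like arrays above the other 4. The median difference of the 14 was 0.00 in EpiSC-like cells and 0.02 at day 7 against ESC.

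Of 6 genes that GCNF is reported to repress, 0 passed in any comparison. Of all genes 1.9% were called in EpiSC-like cells against ESC, 1.05% at day 7 against ESC and 0% at day 7 against EpiSC-like cells. The medians of all genes against ESC were 0.03 in EpiSC-like cells and 0.02 at day 7. All 6 values were below 0 in EpiSC-like cells against ESC (median -0.54) and at day 7 against ESC (median -0.28). So were 14 of 14 naive pluripotency genes in the first comparison (median -1.4) and 11 of 14 in the second (median -0.78), a list that also holds Nanog. Nr6a1, which encodes GCNF, stood at -0.01 at day 7 against ESC. Nanog, a pluripotency factor, read 9801 and 14048 in ESC, 5550 and 5573 in EpiSC-like cells and 10058 and 11456 at day 7, with no overlap between EpiSC-like cells and the other arrays (-1.08 ± 0.26 against ESC, adjusted p = 0.109). Tdgf1 (Cripto), the Nodal coreceptor, stood at -0.65 ± 0.30 in EpiSC-like cells and at -0.42 ± 0.30 at day 7 against ESC. Sox2 stood at -0.38 and -0.03, and the oocyte growth factor genes Gdf9 at -0.15 and -0.12 and Bmp15 at -0.90 and -0.51, the last reading 1.01 to 23.8 over the arrays. Pou5f1 completes the list.

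COUP-TF genes are known to respond to retinoic acid, and 12 genes of that response were measured. In EpiSC-like cells 5 rose, among them Hoxb1 (5.35 ± 0.53), Meis2 (3.56 ± 0.31), Dhrs3 (3.2 ± 0.27) and Stra8 (3.13 ± 0.27), and 0 fell, with a median of 1.27. At day 7 against ESC 3 rose, Meis2 (3.94 ± 0.31), the retinoic acid degrading enzyme Cyp26b1 (3.28 ± 0.40) and Stra8 (1.90 ± 0.27), and 0 fell, with a median of 1.75. Cyp26b1 read 7.25 and 20.0 in ESC, 14.9 and 5.17 in EpiSC-like cells and 189 and 369 at day 7, so like Nr2f1 and Nr2f2 it was highest on both day 7 arrays, whereas Hoxb1, Dhrs3 and Rarb were highest in EpiSC-like cells.

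Markers of other cells differed between the groups along with the receptors. In bulk RNA, fewer cells of a type and less RNA per cell cannot be told apart. Of 16 neural progenitor genes 5 rose at day 7 against ESC, among them Fabp7 (4.99 ± 0.45), Zic1 (3.00 ± 0.39), Sox1 (2.90 ± 0.33) and Lhx2 (2.54 ± 0.34), and 0 fell, with a median of 1.15. In EpiSC-like cells against ESC 4 rose, Fabp7 (4.58 ± 0.45), Sox1 (4.22 ± 0.33), Prom1 (3.16 ± 0.24) and Sox3 (2.69 ± 0.29), and 0 fell, with a median of 1.21. Between day 7 and EpiSC-like cells 0 of all 18194 genes were called, so the lack of calls there says nothing about these 16. Their differences in that comparison were positive for 9 and negative for 7, with a median of 0.34. The summed signal of the 16 was 28522 and 34411 at day 7, against 31701 and 31252 in ESC, sums that Sox2 dominates. Of 15 neuron genes 2 rose, Nhlh2 (4.72 ± 0.70) and Nsg2 (3.37 ± 0.35), and Stmn2 fell by 2.45 ± 0.37, with sums of 3611 and 7930 at day 7, against 10778 and 14948 in ESC. Stmn2 makes up most of the ESC sums, and without it the other 14 summed to 2153 and 5425 at day 7, against 2461 and 1584 in ESC and 4182 and 2242 in EpiSC-like cells. Of 16 primitive and visceral endoderm genes 0 passed, but their sum was 5630 on day 7 replicate 1 and 21269 on replicate 2, against 4630 and 4408 in ESC and 3729 and 4020 in EpiSC-like cells.

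Day 7 replicate 2, the day 7 array with more endoderm and more neuron signal, was also the higher of the 2 day 7 arrays for Nr2f1 (611 against 175) and Nr2f2 (185 against 74.9), and the lower for Nr6a1 (1184 against 2280). The endoderm factor gene Sox17 read 111 and 751 and the receptor gene Pdgfra 67.4 and 527 on day 7 replicates 1 and 2, and the lowest value of the endoderm list was 0.385, for Afp on ESC replicate 2. Among neuron genes Dcx read 78.3 and 604, Nhlh2 206 and 985 and Map2 200 and 850 on the same arrays. The part of these cells in the receptors' levels was not tested. The actin 3′ minus 5′ log2 difference, a measure of RNA length, was 0.71 and 0.94 at day 7, against 0.51 and 0.53 in ESC and 0.58 and 0.46 in EpiSC-like cells, and its part was not tested either. Sums of the mesenchyme and mesoderm list were 711 and 720 at day 7, against 727 and 654 in ESC, with 0 of 14 called, and were 1678 and 2488 in EpiSC-like cells, where Tagln, Col1a2 and Snai2 rose. For 8 blood and endothelium genes the sums were 434 and 451 at day 7, against 472 and 451 in ESC, with 0 called. For 10 trophoblast genes they were 5902 and 6416, against 6112 and 5307 in ESC, with 0 called. Tfap2c makes up most of the ESC sums. Without it the other 9 summed to 2038 and 3498 at day 7, against 1629 and 1651 in ESC and 1107 and 1103 in EpiSC-like cells.

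**Figure D5:**
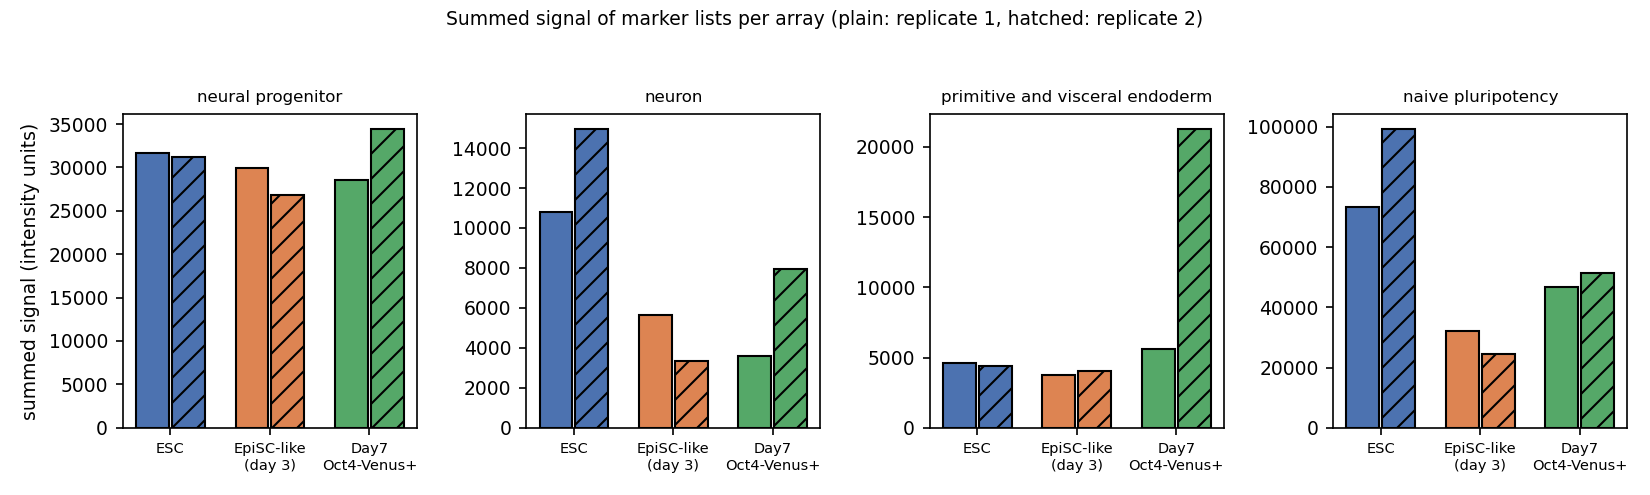
Summed signal in linear intensity units of 4 marker lists on each of the 6 arrays (plain bars, replicate 1; hatched bars, replicate 2). Day 7 replicate 2 stands apart in the endoderm list (21269, against 5630 on day 7 replicate 1), and the naive pluripotency sum is lowest in EpiSC-like cells (32101 and 24361).

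Across the 6 arrays, which share stage and replicate structure, log2 values of Nr2f1 and Nr2f2 correlated with r = 0.89 and those of Nr2f6 and Nr6a1 with r = 0.69. Between these pairs r was negative, at -0.71 for Nr2f1 and -0.81 for Nr2f2 with Nr2f6, and at -0.30 for Nr2f1 and -0.58 for Nr2f2 with Nr6a1. With Pou5f1 the 4 receptors had r between -0.38 and 0.08. Every group was sorted for Oct4 reporter signal, which narrows the range of Pou5f1, and Pou5f1 read higher on replicate 2 in each group. These r values therefore cannot show whether the receptors and Pou5f1 are related. The genes whose log2 values followed each receptor most closely over the 6 arrays, among at most 1760 genes that were bright enough and spanned at least 1 on the log2 scale between group means, were Actn2 (r = 0.992), Adssl1 (0.992) and Ccdc162 (0.991) for Nr2f1. For Nr2f2 they were Tgm2 (0.994), Hspa12a (0.991) and Col4a2 (0.989), the last with 809 and 2598 at day 7, against 222 and 152 in ESC. For Nr6a1 they were Ptk7 (0.993), a receptor of planar cell polarity, Ski (0.990) and Tnfrsf1b (0.981). Ptk7 read 564 and 586 in ESC, 1536 and 1627 in EpiSC-like cells and 774 and 410 at day 7. For Nr2f6 they were Pdzd4 (0.975), Gpsm3 (0.969) and the homeobox gene Gbx2 (0.964). With 6 arrays and that many genes searched, the likeness is a description.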

How the data were processed

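Each array was deposited as a column of linear intensity values, 1 for every probe set. Expression Console (Affymetrix, version 1) is the tool named in the submitters' processing notes, and its algorithm and the genome build are not given in the sources used here. Trimmed of 2% at each end, every array's mean was 500.003 or 500.004, so the intensities had been scaled alike before they were deposited. Detection calls were not used here. The number of arrays limits the precision.

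Of 45101 probe sets 64 were controls, 34945 of the others had 1 gene in the platform's annotation and 932 several. Each gene was read on its probe set of highest mean signal, giving 18194 genes. Values were log2(signal + 16). A model of 3 group means over the 6 arrays was fitted in limma (version 3.58.1, under R 4.3.3), moderated with eBayes (3 residual degrees of freedom) and adjusted by Benjamini-Hochberg over all genes, called under 0.05. A second fit held all 45037 probe sets that are not controls. Errors are SE of the fit. The script was tested on simulated data.

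The members, gene lists and tests were chosen with earlier results of these data known. Named genes were the members, Pou5f1, up to 4 called members per list, every gene of the 2 Pou5f1-related lists, and the 3 genes most correlated with each member. Fgf5 and the list it belongs to were added after the data were seen, and genes named beyond the rule (the Dnmt3 genes, Rora, Pecam1, Sox17, Pdgfra, Afp, Dcx, Map2) were chosen after their values were seen. Alternatives were the pseudocount, a filter, 2 normalizations, the replicate block, probe set handling, an intensity trend and leaving out each array. Some list entries are not reported here.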

Additional observations from a re-analysis of the deposited data

How the results depend on the processing

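Nr2f1 at day 7 against ESC was higher under all 16 alternatives and called in 7 of them (adjusted p from 0.00889 to 0.204). It was not called with a pseudocount of 1 (6.66), with the replicate number as a block (4.24, adjusted p = 0.0668), with all probe sets (4.24) or without any 1 array (3.38 to 5.10). No other difference of the 4 receptors was called under any alternative run, the closest being Nr2f1 at day 7 against EpiSC-like cells with an intensity trend (adjusted p = 0.0561). Nr6a1 at day 7 against ESC, main value -0.01, changed sign with quantile normalization (0.01) and with the mean of its probe sets (0.13), and ranged from -0.47 to 0.46 when 1 array was left out. Nr2f2 in EpiSC-like cells against ESC ranged from -0.42 to 0.27 when 1 array was left out, and Pou5f1 at day 7 against EpiSC-like cells from -0.37 to 0.30, in EpiSC-like cells against ESC from -0.84 to -0.01 and at day 7 against ESC from -0.87 to -0.04. The cause of these changes was not tested.

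Genes called in EpiSC-like cells against ESC numbered 346. They were 0 with a pseudocount of 1, 666 with 64, 655 at or above the 25th percentile, 0 with the replicate block, 129 over all probe sets, 793 with an intensity trend, and 0 to 62 when 1 array was left out. At day 7 against ESC they were 191, and in the same order 0, 661, 556, 0, 0, 789, and 0 to 3. At day 7 against EpiSC-like cells they were 0, against 209 with a pseudocount of 64, 138 at or above the 25th percentile, 10 with median centring, 8 with the mean of a gene's probe sets, 198 with an intensity trend and 7 with the probe set of highest mean log2 value (chosen after seeing the data). Centring each array on its median turned the day 7 against ESC split of 139 higher and 52 lower genes into 100 and 74, and put the median difference of all genes at -0.15, against 0.02 before. For day 7 against EpiSC-like cells that median became -0.12, against -0.02. Deviations of same-numbered arrays from their group means correlated across genes with r = 0.286, 0.077 and 0.094, all positive. The main model did not pair the samples by number, although highest signals and hybridization controls differed by number. With the replicate block, 3366, 3925 and 3057 genes had an unadjusted limma p under 0.05 in the 3 comparisons. Without it they were 2904, 3338 and 2573. Signals under the pseudocount, as of Nr2f1 in ESC, have no reliable fold change.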
